A study of Mus musculus with 12 samples.

Results

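Untreated cardiac precursors of the line MTF2-AID were compared with untreated cardiac precursors of the line SUZ12-AID, to measure how far the RNA of 2 separately made lines differs without added auxin. The deposited table has 35856 rows, and the comparison covers the 13404 autosomal genes with at least 1 TPM (a level scaled for transcript length and library total) in at least 2 of the 4 untreated libraries. Cardiac precursors are mesodermal cells that go on to form heart muscle. Here they derive from C57BL/6 mouse stem cells of embryonic origin, taken through 48 h as embryoid bodies, 43 h of reaggregation with VEGF, Activin A and BMP4, and 32 h as a monolayer with VEGF, basic FGF and FGF10. Both lines carry the plant F-box protein gene Tir1, and in each a single Polycomb protein bears an auxin-inducible degron (AID), SUZ12 in one and MTF2 in the other. Each group has 2 libraries, described in the series as biological replicates. Whether each came from its own culture is not stated, and the tests therefore reflect spread between the deposited libraries, which may be technical. Each tagged protein is represented by 1 line, whose number of clones the labels do not give, and an untagged parental line was not used here. The same 2 lines given 50 µM of the auxin indole-3-acetic acid (2 libraries each) and the untreated line AID-JARID2 (genotype with Tir1, 2 libraries) serve as side values, 12 libraries in all with auxin-treated AID-JARID2.

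SUZ12 belongs to the core of Polycomb repressive complex 2 (PRC2), the enzyme that methylates lysine 27 of histone H3 and keeps developmental genes such as the Hox clusters silent. MTF2 and JARID2 are accessory subunits that occur in different forms of the complex and help it bind chromatin. An auxin degron is meant to leave the tagged protein in place until auxin is added, so untreated lines are the starting point of such experiments. Protein levels were not measured here. The labelled cell stage was checked against its markers. Hand1, a transcription factor of lateral and cardiac mesoderm, was the most abundant cardiac factor, and Gata4, a heart and endoderm factor, lay at 57.9 to 68.9 TPM over the 4 libraries. Isl1, a marker of the second heart field, lay at 28.1 to 32.4 TPM and the troponin gene Tnnt2 at 94.3 to 146 TPM. Of 28 cardiac factors only Tbx5 stayed under 1 TPM in all 4 libraries. Of 24 contractile genes 6 did, among them the ventricular light chain gene Myl2, which did not pass 0.525 TPM. Nkx2-5, a core cardiac factor, was low, at 6.50 and 5.06 TPM in MTF2-AID and 2.77 and 1.73 TPM in SUZ12-AID.

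The 2 untreated SUZ12-AID libraries differed from each other by a larger median amount than some libraries of different lines did. The steps between low values give totals of 17171770 and 16575968 in SUZ12-AID and 10138285 and 10802100 reads in MTF2-AID. The median absolute log2(TPM + 1) difference between libraries of 1 line was 0.0953 in MTF2-AID and 0.193 in SUZ12-AID. Across lines it was 0.240 and 0.255 for the pairs with SUZ12-AID replicate 1, and 0.145 and 0.140 for the pairs with replicate 2. By this median the MTF2-AID libraries lay closer to SUZ12-AID replicate 2 than that library did to its own replicate. Large differences ran the other way. Genes over 1 log2 unit apart made up 1.68% within MTF2-AID, 1.31% within SUZ12-AID, and 2.22% to 3.51% across lines, 2.74% and 2.22% for the pairs with SUZ12-AID replicate 2.

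SUZ12-AID replicate 1 stood apart by transcript length. Over 5 equal groups of genes, from the shortest transcripts to the longest, its median difference from replicate 2 ran 0.10, -0.01, -0.11, -0.22 and -0.36. Between the MTF2-AID libraries the same medians ran from 0.01 to -0.04. The line difference followed SUZ12-AID replicate 1, with medians from -0.06 in the shortest group to 0.21 in the longest, against -0.02 to 0.02 when SUZ12-AID replicate 2 was taken alone. The auxin libraries, which do not include it, had a trend of the same direction between the lines, with medians of -0.09, -0.04, 0.02, 0.06 and 0.16. Calls moved with length too: 30 genes were called higher and 56 lower in MTF2-AID in the shortest group, and 64 and 4 in the longest. A fit with the length trend removed from each library called 1123 genes. Among them were 409 of the 416 genes called by the main fit described below, in the same direction. What part the length trend has in single calls was not tested. Among genes averaging at least 20 TPM over the 4 libraries, those that differed most between the SUZ12-AID libraries were Ago2, which encodes the slicer of RNA interference, at 19.4 and 63.8 TPM, and Trim71, a let-7 target, at 45.8 and 117 TPM, in replicates 1 and 2. Zbed6 (10.7 and 33.5 TPM), Tnks (33.5 and 84.0 TPM), Cbl (14.6 and 34.5 TPM), Alg10b (22.2 and 51.6 TPM) and Xpo4 (19.6 and 42.4 TPM) were also lower in replicate 1. The alpha globin gene Hba-a1, which has a near-identical copy and so an uncertain level, went the other way, at 30.9 and 14.4 TPM. Between the MTF2-AID libraries the gaps were smaller, with Ago2 at 65.3 and 76.6 TPM and Trim71 at 91.3 and 105 TPM.

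**Figure D1:**
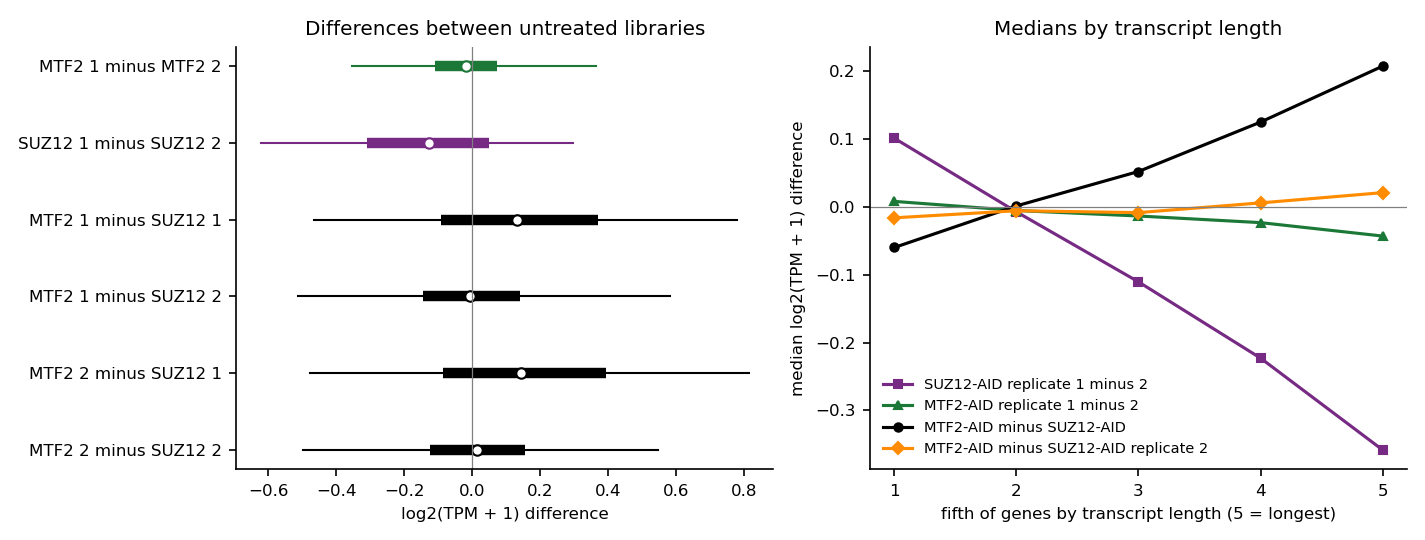
Left, log2(TPM + 1) differences over 13404 genes between untreated libraries, named by line and replicate number (circle, median; thick bar, 25th to 75th percentile; thin bar, 5th to 95th percentile). Right, the median difference in 5 groups of genes by transcript length, where SUZ12-AID replicate 1 falls to -0.36 below replicate 2 in the longest group and the MTF2-AID libraries stay within 0.01 and -0.04 of each other.

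A linear model over all 12 libraries, with a variance weight per group (limma), gave 416 of 13404 genes an adjusted p under 0.05, which is 3.1%. Of these, 283 genes (2.11%) were higher in MTF2-AID and 133 (0.992%) were lower. At least 2-fold apart were 41 of the higher genes (0.306%) and 18 of the lower genes (0.134%), together 59 or 0.44%. In all 416 genes both libraries of 1 line lay above both of the other, but so they did in 50.3% of all genes tested. Most called differences were small, with a median size of 0.62 on the log2 scale, and 187 of the 416 were under 1.5-fold. The excess of higher over lower calls moved with scaling. The median difference of all genes was 0.07, and with median-of-ratios scaling, which brings it near 0, the split was 229 higher and 201 lower, and 28 and 34 at least 2-fold. Quantile normalization gave 351 higher and 299 lower, 44 and 59 of them at least 2-fold, and removing the length trend from each library gave 577 higher and 546 lower. Single libraries carried many calls. Without SUZ12-AID replicate 1 the count was 24, all among the 416, and it was 250 without SUZ12-AID replicate 2, 248 without MTF2-AID replicate 1 and 229 without MTF2-AID replicate 2. Of the 129 called genes that the naming rule selects, 112 were not called without SUZ12-AID replicate 1.

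In 16 genes the call held in the same direction under all 16 other settings that were run, the 4 above included. Of these, 11 were higher in MTF2-AID and 5 were lower. They include Suz12 itself, the keratin gene Krt8, the retinoic acid-degrading enzyme gene Cyp26a1, the homeobox gene Six2, the neuronal tubulin gene Tubb3, the intermediate filament gene Nes, and Pmp22, which encodes a peripheral myelin protein. Nes lay at 45.6 and 47.7 TPM in MTF2-AID and 27.9 and 28.0 TPM in SUZ12-AID. The other 9 are Arpc1b, Cops4, Eif3b, Eif4h, Gtf3a, Mcm7, Mef2d, Sec31a and Ssr2, and all of them lie in runs of neighbouring genes on chromosomes 3 and 5 that are described below. Arpc1b, Gtf3a, Mef2d and Nes are named after their values were seen. Arpc1b, a subunit of the actin-nucleating complex, lay at 182 and 171 TPM in MTF2-AID and 111 and 105 TPM in SUZ12-AID, and Mef2d, a muscle transcription factor, at 69.2 and 73.0 TPM in MTF2-AID and 32.4 and 40.7 TPM in SUZ12-AID.

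Among the tagged genes, Suz12 differed between the lines and Mtf2 and Jarid2 were not called. The Suz12 transcript (mm10, chr11:79993106-80034123, plus strand) measured 60.9 and 63.0 TPM in MTF2-AID and 113 and 127 TPM in SUZ12-AID (log2 difference -0.94, SE 0.09, adjusted p = 0.00129). The mean of the SUZ12-AID line was 1.94 times that of the MTF2-AID line, with no overlap of libraries. Untreated AID-JARID2 had 64.6 and 69.9 TPM, near MTF2-AID, so the SUZ12-AID line was the high one. With auxin the values were 60.0 and 60.7 TPM in MTF2-AID and 106 and 109 TPM in SUZ12-AID. Mtf2 (chr5:108065674-108109004, plus strand) measured 22.4 and 21.7 TPM in MTF2-AID and 21.3 and 26.7 TPM in SUZ12-AID (log2 difference -0.11, SE 0.13, adjusted p = 0.717), and Jarid2 (chr13:44729474-44921643, plus strand) 33.5 and 34.7 TPM in MTF2-AID and 26.0 and 34.3 TPM in SUZ12-AID (log2 difference 0.19, SE 0.13, adjusted p = 0.509). For both genes the libraries of the lines overlapped. Within 1 Mb of Suz12, Mtf2 and Jarid2, 17, 21 and 5 other genes were tested. The limma fit called 0 of them, while 3, 3 and 0 had an unadjusted p under 0.05, as 17% of all genes tested did.

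Homeobox and nerve-associated genes were among the largest differences higher in MTF2-AID. Nkx1-2, a homeobox gene of the posterior epiblast and neural tube (chr7:132594878-132599637, minus strand), measured 51.0 and 60.6 TPM in MTF2-AID and 10.0 and 13.4 TPM in SUZ12-AID (log2 difference 2.17, SE 0.27, adjusted p = 0.00305). It was the largest difference in this direction among genes of at least 5 TPM, and untreated AID-JARID2 lay at 13.4 and 13.2 TPM, near SUZ12-AID. The 250 bases before its start site are shown as the promoter of this leading gene (chr7:132599638-132599887, minus strand, RefSeq, GRCm38.p6), with its 19 CpG in capitals. CpG is the dinucleotide clustered in promoters of many Polycomb targets. All tested genes have a median of 16 (quartiles 10 and 23), so 19 is not unusual.
Nkx1-2: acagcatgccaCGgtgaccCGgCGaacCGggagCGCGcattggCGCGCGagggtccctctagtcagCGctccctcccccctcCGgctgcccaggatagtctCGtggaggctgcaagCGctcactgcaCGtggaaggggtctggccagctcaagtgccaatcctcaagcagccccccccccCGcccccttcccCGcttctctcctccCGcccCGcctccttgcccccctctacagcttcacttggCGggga
The Hox genes, which set position along the body axis, supplied Hoxd3 at 5.47 and 5.04 TPM in MTF2-AID and 0.558 and 1.07 TPM in SUZ12-AID (log2 difference 1.80, adjusted p = 0.00645). Hoxb9 lay at 8.77 and 9.32 TPM in MTF2-AID and 2.05 and 2.58 TPM in SUZ12-AID (log2 difference 1.603, SE 0.22, adjusted p = 0.00481), and Hoxd4 at 8.95 and 10.6 TPM in MTF2-AID and 2.43 and 4.05 TPM in SUZ12-AID (log2 difference 1.37). All 3 were low in SUZ12-AID, and in no case did the groups overlap. Snap91, a clathrin assembly protein gene of synapses, lay at 6.09 and 6.60 TPM in MTF2-AID and 1.19 and 1.63 TPM in SUZ12-AID, and Tubb3 at 20.2 and 18.4 TPM in MTF2-AID and 6.90 and 6.74 TPM in SUZ12-AID (log2 difference 1.37, SE 0.15, adjusted p = 0.00214). Both nerve-associated genes were also expressed, at a lower level, in SUZ12-AID.

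The other leading genes higher in MTF2-AID include genes of vessels, mesoderm and matrix. Cd34, a surface protein of endothelial and blood progenitors, measured 11.1 and 10.4 TPM in MTF2-AID and 3.04 and 4.55 TPM in SUZ12-AID (log2 difference 1.31, SE 0.21, adjusted p = 0.00882), and Flt1, a VEGF receptor gene, 6.16 and 8.73 TPM in MTF2-AID and 1.82 and 3.42 TPM in SUZ12-AID (log2 difference 1.24, SE 0.25, adjusted p = 0.0277). The matrix protease gene Mmp9 lay at 7.19 and 10.0 TPM in MTF2-AID and 1.83 and 2.78 TPM in SUZ12-AID, and the secreted-protein gene Crispld2 at 7.48 and 6.79 TPM in MTF2-AID and 1.98 and 1.83 TPM in SUZ12-AID. Six2, a homeobox gene of kidney and head mesenchyme, lay at 15.9 and 16.1 TPM in MTF2-AID and 6.16 and 6.45 TPM in SUZ12-AID (log2 difference 1.22, SE 0.12, adjusted p = 0.00147). Lfng, which modifies Notch receptors, measured 24.9 and 25.8 TPM in MTF2-AID and 10.1 and 10.6 TPM in SUZ12-AID (log2 difference 1.22, SE 0.15, adjusted p = 0.00305), and Dkk1, a secreted WNT inhibitor gene, 42.2 and 42.1 TPM in MTF2-AID and 18.4 and 17.7 TPM in SUZ12-AID (log2 difference 1.18, SE 0.19, adjusted p = 0.00882). For Six2, Lfng and Dkk1 the 2 libraries of a line lay close together. Zbtb16, a zinc finger repressor gene, lay at 6.60 and 6.70 TPM in MTF2-AID and 2.21 and 2.65 TPM in SUZ12-AID (log2 difference 1.16).

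Genes lower in MTF2-AID were led by an embryonic globin and by genes of chromosome 5. Hbb-bh1, the embryonic beta-like globin gene of primitive erythroid cells (chr7:103841637-103843164, minus strand), measured 5.78 and 3.54 TPM in MTF2-AID and 41.2 and 27.7 TPM in SUZ12-AID (log2 difference -2.65, SE 0.61, adjusted p = 0.0457). Its replicates spread widely in both lines, and its call was lost in 7 of 16 settings. Plac8 and Anxa3, an annexin gene, lie on chromosome 5 and measured 0.527 and 0.940 TPM in MTF2-AID and 5.01 and 5.34 TPM in SUZ12-AID, and 5.36 and 5.85 TPM in MTF2-AID and 18.7 and 22.004 TPM in SUZ12-AID (log2 differences -1.84 and -1.69). Cops4, a subunit gene of the COP9 signalosome, which acts on ubiquitin ligases, measured 67.7 and 77.7 TPM in MTF2-AID and 157 and 163 TPM in SUZ12-AID (log2 difference -1.13, SE 0.12, adjusted p = 0.00214). In all 3 genes the MTF2-AID line stood apart from both other lines, since AID-JARID2 had 5.24 and 5.87 TPM for Plac8, 12.2 and 16.8 TPM for Anxa3 and 154 and 168 TPM for Cops4. The 250 bases before the start sites of Plac8 and Cops4, which lie near each other, are shown (RefSeq, GRCm38.p6, CpG in capitals). What part position or promoter sequence has in their line differences was not tested. That of Plac8 (chr5:100572206-100572455, minus strand) holds 4 CpG and that of Cops4 (chr5:100518059-100518308, plus strand) 16, where the median of all tested genes is 16.
Plac8: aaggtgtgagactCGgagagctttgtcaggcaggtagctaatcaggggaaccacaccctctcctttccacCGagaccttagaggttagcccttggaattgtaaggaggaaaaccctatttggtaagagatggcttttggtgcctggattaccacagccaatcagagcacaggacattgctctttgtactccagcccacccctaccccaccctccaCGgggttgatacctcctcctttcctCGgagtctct
Cops4: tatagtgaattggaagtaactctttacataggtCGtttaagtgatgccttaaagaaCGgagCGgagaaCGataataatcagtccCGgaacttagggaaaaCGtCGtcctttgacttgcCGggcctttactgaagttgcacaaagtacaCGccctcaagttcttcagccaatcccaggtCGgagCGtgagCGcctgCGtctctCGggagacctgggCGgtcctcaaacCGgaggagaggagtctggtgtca

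Away from chromosome 5, Cryab, a small heat shock protein gene of muscle and lens, measured 11.3 and 11.1 TPM in MTF2-AID and 37.1 and 28.5 TPM in SUZ12-AID (log2 difference -1.46, SE 0.22, adjusted p = 0.00715). Car3, a carbonic anhydrase gene, lay at 4.75 and 6.08 TPM in MTF2-AID and 14.9 and 14.4 TPM in SUZ12-AID, Amer3 at 4.22 and 5.51 TPM in MTF2-AID and 10.5 and 13.3 TPM in SUZ12-AID, and the protease gene Klk8 at 8.55 and 9.04 TPM in MTF2-AID and 21.4 and 19.8 TPM in SUZ12-AID. Both small proline-rich genes named, Sprr2a2 at 7.598 and 11.5 TPM in MTF2-AID and 31.6 and 26.6 TPM in SUZ12-AID and Sprr2a3 at 10.6 and 9.28 TPM in MTF2-AID and 18.9 and 28.2 TPM in SUZ12-AID, were lower in MTF2-AID. They are near-identical copies, so the division of reads between them is uncertain. Ackr3, a scavenger receptor for the chemokine CXCL12, measured 22.1 and 24.1 TPM in MTF2-AID and 44.3 and 61.0 TPM in SUZ12-AID (log2 difference -1.14, SE 0.17, adjusted p = 0.00657). Ms4a4d lay at 7.74 and 8.84 TPM in MTF2-AID and 16.6 and 22.7 TPM in SUZ12-AID, Serping1, a complement inhibitor gene, at 3.01 and 3.39 TPM in MTF2-AID and 8.44 and 7.40 TPM in SUZ12-AID, and Cpne4 at 8.34 and 9.05 TPM in MTF2-AID and 14.9 and 21.9 TPM in SUZ12-AID. Hoxb2 was the 1 Hox gene called lower in MTF2-AID, at 31.1 and 30.4 TPM in MTF2-AID and 57.7 and 64.8 TPM in SUZ12-AID (log2 difference -0.97, SE 0.15, adjusted p = 0.00876). In none of these genes did the groups overlap.

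**Figure D2:**
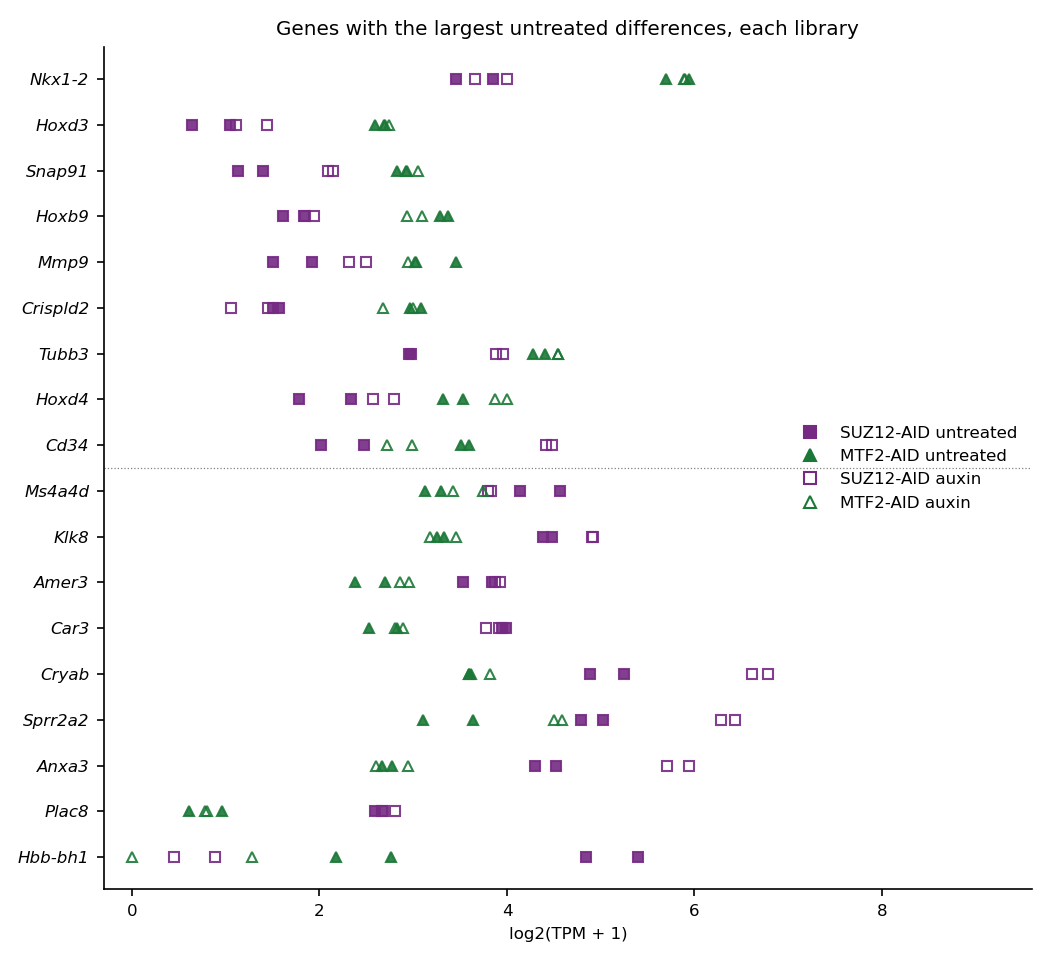
The 9 largest differences in each direction among called genes whose higher line averaged at least 5 TPM, as log2(TPM + 1) of each library of SUZ12-AID (squares) and MTF2-AID (triangles), untreated (filled) or with auxin (open). Filled symbols of the lines do not overlap in any of these genes; the open symbols lie in the opposite order for Cd34 and overlap for Hbb-bh1.

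Called genes were unevenly spread over the chromosomes. Chromosome 5 held 149 of the 416 calls (35.8%) with 6.66% of the genes tested, and 139 of them were higher in MTF2-AID. Chromosome 8 held 42 calls, 32 of them lower, and chromosome 3 held 37. On the other 16 autosomes 0.723% to 3.41% of genes were called. Relative to the median of all genes, the median difference was 0.19 on chromosome 5 and -0.16 on chromosome 6, and between -0.04 and 0.05 on every other autosome. On chromosome 6 486 of 646 genes (75.2%) lay below the overall median, and 490 (75.9%) did in the auxin libraries.

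Neighbouring genes differed together. The pattern was noticed in these values, after whole chromosomes and windows of fixed width had been looked at, and the following rule was set afterwards, so the untreated values of the stretches are a description with no test. A stretch is a run of at least 20 tested genes over which the running median of 15 consecutive genes, relative to all genes, stayed at 0.25 or more on one side, with gaps of up to 5 genes bridged. The rule gave 11 stretches on chromosomes 3, 5, 6 and 8 with 716 genes (5.34% of those tested). They held 192 of the 416 calls, all on the side of their stretch, so 26.8% of stretch genes and 1.77% of other genes were called. Applied to the difference between the 2 libraries of a line, the rule gave 0 stretches in MTF2-AID, 0 in SUZ12-AID and 1 of 24 genes, on chromosome 13, in AID-JARID2. A threshold of 0.3, also chosen after seeing the data, left 8 stretches with 560 genes on the same 4 chromosomes. Ends are known only to within several genes, because the median is taken over 15.

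The longest stretch covered the distal part of chromosome 5 (chr5:118064965-150497753, stretch 4) and was higher in MTF2-AID. In it 340 of 359 genes (94.7%) lay above the overall median, 130 were called, and the median difference was 0.40, or 1.32-fold. Its most abundant called genes include Actb, which encodes cytoplasmic actin (9359 and 8890.0 TPM in MTF2-AID and 7563 and 7767 TPM in SUZ12-AID), the ribosomal protein gene Rpl6 (2534 and 2536 TPM in MTF2-AID and 2179 and 1874 TPM in SUZ12-AID), whose share of reads with processed copies is uncertain, and Mdh2, a mitochondrial malate dehydrogenase gene (818 and 861 TPM in MTF2-AID and 631 and 568 TPM in SUZ12-AID). Fscn1, an actin-bundling protein gene, measured 1396 and 1397 TPM in MTF2-AID and 1073 and 1059.6 TPM in SUZ12-AID. Eif3b and Eif4h, both translation initiation factor genes, measured 768 and 772 TPM in MTF2-AID and 562 and 553 TPM in SUZ12-AID, and 904 and 911 TPM in MTF2-AID and 685 and 657 TPM in SUZ12-AID (log2 differences 0.47 and 0.43). Actin, ribosomal and initiation factor genes are used by every cell, and Actb, Rpl6, Eif3b and Eif4h were each modestly higher in both MTF2-AID libraries. This did not hold for ribosomal protein genes as a list, which does not include Rpl6. Of its 25 tested members, 2 had a difference above 0, 0 were called higher and 1 lower, beside 2.11% and 0.992% of all genes. The list median was -0.08, and 0.0099 against SUZ12-AID replicate 2 alone. The call of Actb was lost in 9 of the 16 other settings. Cdx2, Lfng, Flt1, Kdm2b, Mcm7, Hsph1 and Gusb, named here for other reasons, lie in the same stretch.

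A shorter run of chromosome 5 (chr5:96070333-100719716, stretch 3) was lower in MTF2-AID and had the largest median shift of the 11. All 22 of its genes lay below the overall median, and the median difference was -0.73, a ratio of 0.601. Beside Plac8, Anxa3 and Cops4 it holds Sec31a, a coat protein gene of secretory vesicles, at 76.4 and 75.7 TPM in MTF2-AID and 132 and 148 TPM in SUZ12-AID (log2 difference -0.87, SE 0.08, adjusted p = 0.000969), and Enoph1, a methionine salvage enzyme gene, at 25.5 and 23.03 TPM in MTF2-AID and 46.2 and 49.7 TPM in SUZ12-AID. The RNA-binding protein genes Hnrnpd and Hnrnpdl measured 42.3 and 42.7 TPM in MTF2-AID and 67.9 and 67.8 TPM in SUZ12-AID, and 75.01 and 78.4 TPM in MTF2-AID and 105 and 108 TPM in SUZ12-AID. Mtf2 lies between both stretches of chromosome 5, in neither.

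Chromosome 3 had a stretch on each side. In stretch 1 (chr3:88081971-88910103) 23 of 24 genes were above the overall median, and 10 of its genes were called, with a median difference of 0.40. Cct3, a chaperonin subunit gene, measured 957 and 967 TPM in MTF2-AID and 758 and 752 TPM in SUZ12-AID there, Ssr2, a gene of the endoplasmic reticulum translocon, 454 and 446 TPM in MTF2-AID and 335 and 314 TPM in SUZ12-AID, and Mex3a, an RNA-binding protein gene, 137 and 141 TPM in MTF2-AID and 80.7 and 103 TPM in SUZ12-AID. Ubqln4, Smg5 and Gon4l were called higher too (log2 differences 0.48, 0.54 and 0.58). In stretch 2 (chr3:107278858-127553349) 75 of 80 genes were below, 10 were called, and the median difference was -0.43. Its called genes include Psma5, a proteasome subunit gene (174 and 175 TPM in MTF2-AID and 264 and 245 TPM in SUZ12-AID), the seryl-tRNA synthetase gene Sars (124 and 118 TPM in MTF2-AID and 185 and 175 TPM in SUZ12-AID), and Larp7, which binds the small RNA of the transcription regulator 7SK (68.9 and 66.8 TPM in MTF2-AID and 108 and 101 TPM in SUZ12-AID). Cnn3, Gnai3 and Rtca were called lower at log2 differences of -0.36, -0.49 and -0.57.

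On chromosome 8 there were 4 stretches, all lower in MTF2-AID. Stretch 8 (chr8:4493026-12868728) had a median difference of -0.45, with Ing1, a chromatin reader gene, at 41.4 and 44.5 TPM in MTF2-AID and 60.8 and 69.9 TPM in SUZ12-AID, and Carkd, Arglu1 and Ankrd10 called lower as well (log2 differences -0.68, -0.44 and -0.45). Stretches 9 (chr8:83165352-84104768) and 10 (chr8:84208825-91313262) almost adjoin, with medians of -0.35 and -0.39. They hold Tecr, a fatty acid elongation enzyme gene (448 and 447 TPM in MTF2-AID and 672 and 619 TPM in SUZ12-AID), Ndufb7 of respiratory complex I (271 and 273 TPM in MTF2-AID and 465 and 378 TPM in SUZ12-AID), and the peroxidase gene Prdx2 (442 and 423 TPM in MTF2-AID and 671 and 601 TPM in SUZ12-AID). Prkaca, Gipc1, Asna1, Dnaja2, Farsa and Nacc1 were called lower at log2 differences of -0.55, -0.68, -0.42, -0.48, -0.34 and -0.35. Stretch 11 (chr8:123805985-126593986) had a median of -0.42 and includes Rab4a, an endosomal GTPase gene, at 20.2 and 21.6 TPM in MTF2-AID and 37.8 and 35.7 TPM in SUZ12-AID, with Gnpat, Tsnax, Galnt2 and Abcb10 at -0.40, -0.50, -0.49 and -0.68. The 3 stretches of chromosome 6 (chr6:72957347-83343776, chr6:85451514-86793584 and chr6:120666369-125161782) were shallower, with medians of -0.26, -0.26 and -0.30 and 0, 1 and 4 genes called by the limma fit (9 of 28, 6 of 22 and 16 of 48 at an unadjusted p under 0.05, beside 17% of all genes). The called genes of stretches 6 and 7 include the chaperonin gene Cct7, the prohibitin gene Phb2, the proton pump subunit gene Atp6v1e1 and the cell division gene Cdca3, at log2 differences of -0.23, -0.25, -0.32 and -0.48.

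**Figure D3:**
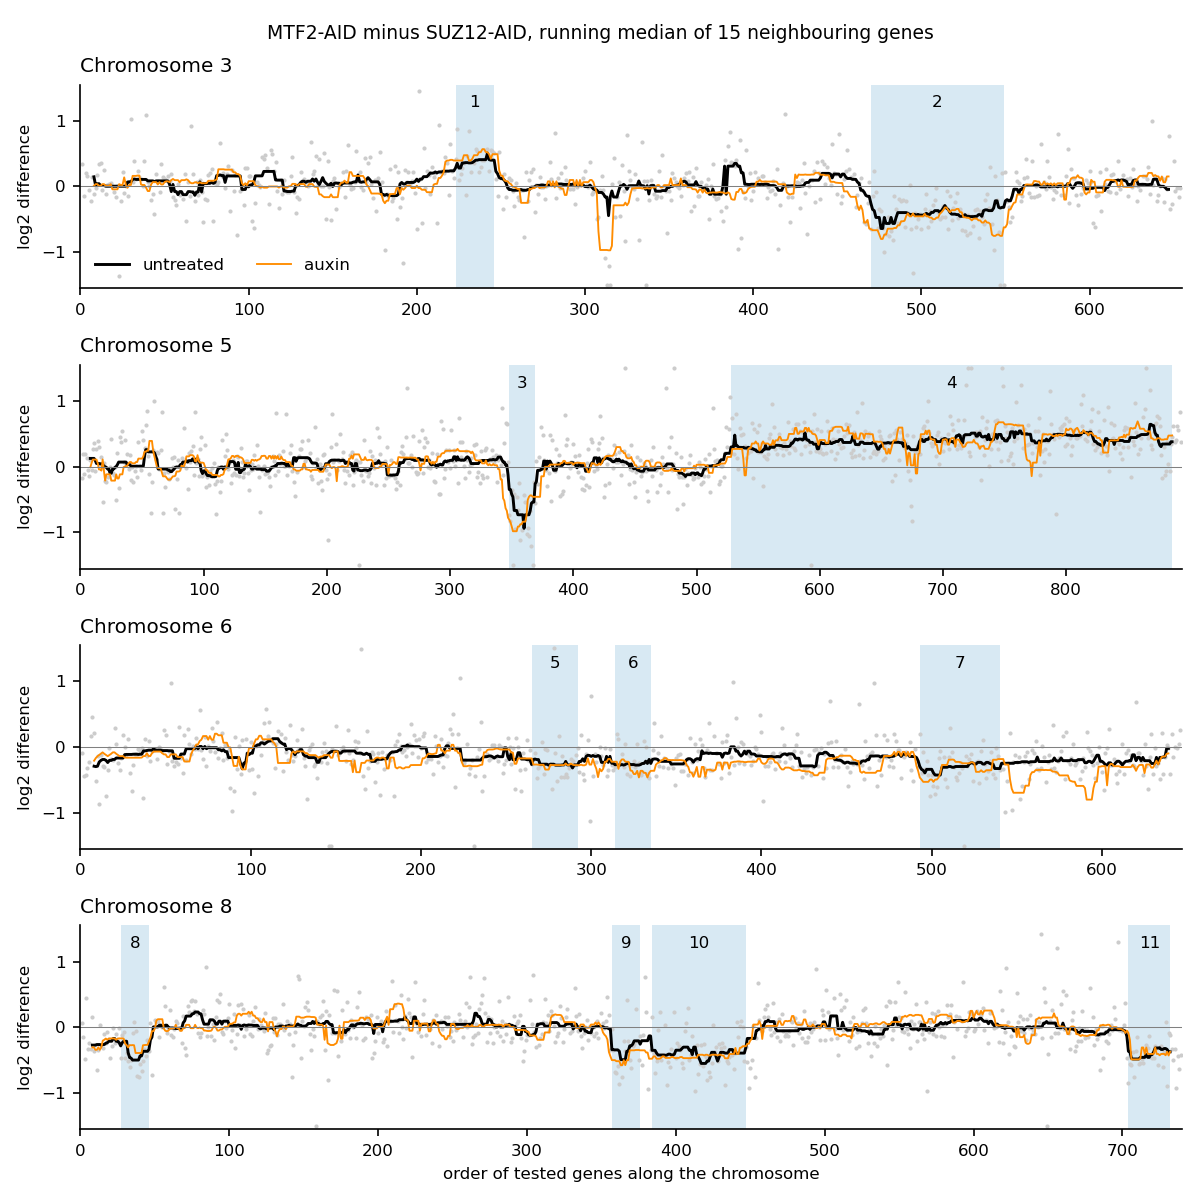
Line difference (MTF2-AID minus SUZ12-AID, log2, relative to the median of all genes) along the order of tested genes on the 4 chromosomes with stretches. Grey points are untreated values of single genes, drawn at the edge where beyond 1.5; lines are running medians of 15 genes in untreated (black) and auxin libraries (orange); shaded bands are stretches 1 to 11, found on the black line. The orange line keeps to the side of the black one over most of each band, as do the stretch medians (0.44 with auxin against 0.40 in stretch 4).

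The auxin-treated libraries of the same lines, which the rule did not use, had the same stretches on the same side. Their median line differences were 0.51 and -0.53 in stretches 1 and 2, -0.82 and 0.44 in 3 and 4, -0.27 to -0.37 in 5 to 7, and -0.50 to -0.29 in 8 to 11. All 11 kept their side, with 75% to 100% of genes on it. In stretch 4, 229 of 359 genes passed the test in the auxin contrast on that side, where the background is 18.4% of all genes higher. All 22 genes of stretch 3 were again lower, 17 of them called. The rule applied to the auxin contrast itself gave 16 stretches with 917 genes on 7 chromosomes, and 599 of those genes are among the 716.

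Levels in the single libraries showed which line stood apart. Each level is the median over the genes of a stretch of log2(TPM + 1) minus the mean of the 12 libraries, less the same median over all genes. In stretch 4 the 4 MTF2-AID libraries lay at 0.27 to 0.28, the 4 SUZ12-AID libraries at -0.17 to -0.09 and the 4 AID-JARID2 libraries at -0.16 to -0.12. In stretch 3 they lay at -0.54 to -0.51, 0.21 to 0.32 and 0.19 to 0.35 in the same order. So in both stretches of chromosome 5 the MTF2-AID line was apart from both other lines. The same held for stretches 1 and 2 of chromosome 3 and 9 to 11 of chromosome 8, with MTF2-AID at -0.35 to -0.28 in stretch 2 and -0.29 to -0.21 in stretch 10 where the other 8 libraries were above 0. In stretch 8 the SUZ12-AID line was the high one, at 0.23 to 0.38 against -0.13 to -0.08 in MTF2-AID and -0.32 to -0.14 in AID-JARID2. In stretches 5 to 7 of chromosome 6 it was again SUZ12-AID that lay above both other lines, at 0.08 to 0.23 in stretch 7. In stretch 5 AID-JARID2 lay at 0.01 and -0.02 untreated and at -0.35 and -0.30 with auxin, beside -0.07 to -0.06 in MTF2-AID. SUZ12-AID replicate 1 did not stand apart in these levels. Against SUZ12-AID replicate 2 alone the median difference was 0.42 in stretch 4 and -0.85 in stretch 3, and it moved most in stretch 5, to -0.14.

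**Figure D4:**
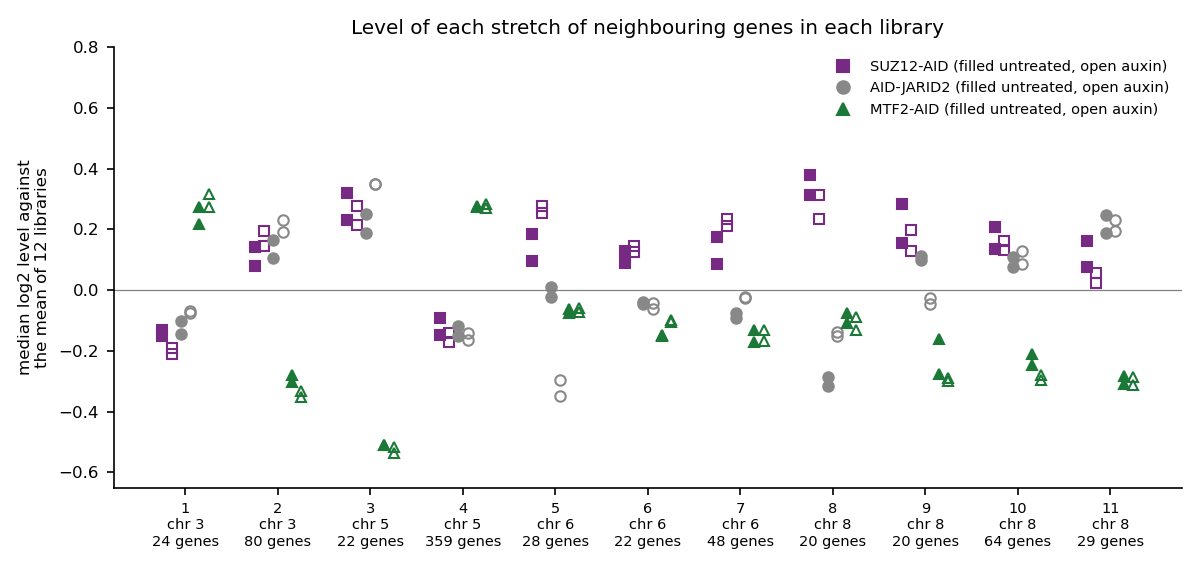
Level of each of the 11 stretches in each of the 12 libraries (log2, relative to the mean of the 12 libraries and to all genes). MTF2-AID triangles stand apart in stretches 1 to 4 and 9 to 11, SUZ12-AID squares in stretches 5 to 8, with and without auxin. In stretch 5 the auxin-treated AID-JARID2 libraries also stand apart, at -0.35 and -0.30, below MTF2-AID.

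The gene lists below held 605 tested genes, of which 44 were called higher and 24 lower in MTF2-AID (11.2%, against 3.1% of all genes). The lists were drawn up with results of these data known, so that share is a description. The background for each list is 2.11% of all genes called higher and 0.992% called lower. In bulk RNA such as this, fewer cells of a type and less RNA per cell cannot be told apart. Of the called list members 10 lie in stretches. Of 12 PRC2 genes Suz12 was the 1 called, and the median was 0.03, or -0.02 against SUZ12-AID replicate 2 alone. Of 20 genes of PRC1, the complex that marks histone H2A, 3 were called higher and 0 lower (median 0.16, and 0.05 against SUZ12-AID replicate 2 alone). These were Bmi1 (15.4 and 13.9 TPM in MTF2-AID and 6.51 and 6.79 TPM in SUZ12-AID; log2 difference 1.03), Pcgf5 (8.97 and 9.21 TPM in MTF2-AID and 4.06 and 5.61 TPM in SUZ12-AID), both subunits that define forms of PRC1, and Kdm2b, which recruits PRC1 to CpG islands (47.5 and 49.8 TPM in MTF2-AID and 25.6 and 32.9 TPM in SUZ12-AID; within stretch 4). The limma fit called 0 of 8 DNA methylation enzymes, 0 of 6 germline genes and 0 of 20 histone genes (unadjusted p under 0.05 in 4, 1 and 3, where 17% of all genes had one), with Dnmt1 at 196 and 197 TPM in MTF2-AID and 151 and 181 TPM in SUZ12-AID and Uhrf1 at 236 and 243 TPM in MTF2-AID and 243 and 261 TPM in SUZ12-AID.

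Hox and neural genes had list medians above that of all genes. Their calls stand beside 2.11% of all genes called higher and 0.992% lower. For Hox genes, 3 of 20 tested members were called higher and 1 lower (median log2 difference 0.52), and 16 differences were above 0. The caudal factor Cdx2, an activator of posterior Hox genes and a trophoblast factor, measured 427 and 439 TPM in MTF2-AID and 234 and 212 TPM in SUZ12-AID (log2 difference 0.95, SE 0.15, adjusted p = 0.00757) and lies in stretch 4. With auxin it measured 425 and 425 TPM in MTF2-AID and 98.8 and 73.2 TPM in SUZ12-AID. For neural genes, 4 of 11 tested members were called higher and 1 lower (median log2 difference 0.72). Zic2, a neural plate factor, lay at 20.7 and 21.7 TPM in MTF2-AID and 11.1 and 12.8 TPM in SUZ12-AID (log2 difference 0.78, SE 0.11, adjusted p = 0.00542), and Sox2, a factor of neural and pluripotent cells, at 7.35 and 6.996 TPM in MTF2-AID and 2.63 and 3.64 TPM in SUZ12-AID (log2 difference 0.99, adjusted p = 0.026). Irx3 was the neural gene called lower, at 42.3 and 42.2 TPM in MTF2-AID and 76.4 and 77.8 TPM in SUZ12-AID (log2 difference -0.85, SE 0.18, adjusted p = 0.029). Summed over the 24 neural genes, levels were 173 and 173 TPM in MTF2-AID and 149 and 157 TPM in SUZ12-AID, and 11 of the 24 stayed under 1 TPM in all 4 libraries. For pluripotency and epiblast genes, 3 of 22 tested members were called higher and 0 lower (median log2 difference 0.22): beside Sox2, the stem cell chromatin factor gene Utf1 at 52.8 and 57.9 TPM in MTF2-AID and 36.8 and 32.6 TPM in SUZ12-AID and Lin28a, a blocker of let-7 processing, at 346 and 356 TPM in MTF2-AID and 262 and 291 TPM in SUZ12-AID.

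Up to 4 members of each signalling list were called, where 2.11% of all genes tested were called higher and 0.992% lower. In the FGF pathway, 4 of 16 tested members were called higher and 0 lower (median log2 difference 0.20). The 4 are FGF response genes: the inhibitors Spry4 (23.05 and 23.5 TPM in MTF2-AID and 12.4 and 12.8 TPM in SUZ12-AID; log2 difference 0.83, SE 0.14, adjusted p = 0.0122) and Spry1 (90.1 and 79.6 TPM in MTF2-AID and 46.9 and 54.5 TPM in SUZ12-AID; log2 difference 0.73), the ERK phosphatase gene Dusp6 (197 and 191 TPM in MTF2-AID and 101 and 117 TPM in SUZ12-AID; log2 difference 0.83, SE 0.10, adjusted p = 0.00268), and the transcription factor gene Etv5 (67.1 and 71.9 TPM in MTF2-AID and 46.9 and 56.6 TPM in SUZ12-AID; log2 difference 0.42). In each, both MTF2-AID libraries lay above both SUZ12-AID libraries. The list members Spry2 and Etv4 were not called (log2 differences 0.07 and 0.20), and 10 of the 16 differences were above 0. For WNT ligands and feedback targets, 3 of 21 tested members were called higher and 0 lower (median log2 difference 0.18, and -0.00081 against SUZ12-AID replicate 2 alone): Dkk1, the WNT amplifier gene Rspo3 (24.5 and 28.1 TPM in MTF2-AID and 16.1 and 13.3 TPM in SUZ12-AID) and Lef1, a nuclear partner of beta-catenin (82.3 and 84.2 TPM in MTF2-AID and 55.8 and 65.4 TPM in SUZ12-AID). In the BMP and NODAL pathway, 0 of 18 tested members were called higher and 2 lower (median log2 difference -0.22): the NODAL co-receptor gene Cfc1 (42.5 and 34.4 TPM in MTF2-AID and 78.4 and 71.1 TPM in SUZ12-AID; log2 difference -0.95, SE 0.22, adjusted p = 0.0459) and the BMP antagonist gene Nog (9.57 and 9.48 TPM in MTF2-AID and 16.7 and 18.3 TPM in SUZ12-AID; log2 difference -0.81, SE 0.11, adjusted p = 0.00496). In the Notch list, 2 of 14 tested members were called higher and 0 lower (median log2 difference 0.42, and 0.28 against SUZ12-AID replicate 2 alone), namely Lfng and the feedback inhibitor gene Nrarp (11.2 and 10.6 TPM in MTF2-AID and 6.38 and 6.71 TPM in SUZ12-AID). In the retinoic acid list, 2 of 12 tested members were called higher and 0 lower (median log2 difference 0.25): Cyp26a1 (25.1 and 25.4 TPM in MTF2-AID and 12.6 and 12.6 TPM in SUZ12-AID; log2 difference 0.95, SE 0.09, adjusted p = 0.000969) and the receptor gene Rarg (85.8 and 78.9 TPM in MTF2-AID and 55.9 and 55.1 TPM in SUZ12-AID).

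Endothelial genes lay higher in MTF2-AID as a list although few passed the test. Of 20 tested members, 18 had a positive difference, 18 did not overlap between the lines, as 50.3% of all genes did not, and 2, Cd34 and Flt1, were called. The median was 0.78, against 0.07 over all genes, and 0.60 against SUZ12-AID replicate 2 alone. Kdr, a VEGF receptor gene of endothelial and early mesoderm cells, measured 68.9 and 71.4 TPM in MTF2-AID and 36.7 and 53.9 TPM in SUZ12-AID (adjusted p = 0.0959), and Cdh5, the endothelial cadherin gene, 12.5 and 14.4 TPM in MTF2-AID and 4.95 and 8.31 TPM in SUZ12-AID. Pecam1, an adhesion protein gene, went the other way, at 57.3 and 54.5 TPM in MTF2-AID and 78.0 and 89.6 TPM in SUZ12-AID. The summed level of the 21 genes was 412 and 402 TPM in MTF2-AID and 312 and 348 TPM in SUZ12-AID. With auxin the order was the other way round, 289 and 275 against 483 and 477 TPM. For blood genes, 1 of 14 tested members was called higher and 2 lower (median log2 difference -0.21), beside 2.11% and 0.992% of all genes. Both called lower are embryonic globin genes, Hbb-bh1 and Hbb-y, the latter at 0.814 and 0 TPM in MTF2-AID and 3.49 and 4.00 TPM in SUZ12-AID, and the one called higher is Lmo2, a cofactor of blood and vessel formation, at 20.2 and 17.6 TPM in MTF2-AID and 8.12 and 8.70 TPM in SUZ12-AID (log2 difference 1.08, SE 0.21, adjusted p = 0.0224). The summed level of 19 blood genes was 94.2 and 79.3 TPM in MTF2-AID and 140.3 and 113 TPM in SUZ12-AID. What part different shares of endothelial or blood cells have in these values was not tested.

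Among cardiac factors 0 of 27 tested members were called higher and 1 lower, a share near the 3.1% of all genes. Their median log2 difference was -0.07, and -0.24 against SUZ12-AID replicate 2 alone. The called gene was Hand1, at 1369.7 and 1352 TPM in MTF2-AID and 2291 and 2552 TPM in SUZ12-AID (log2 difference -0.83, SE 0.11, adjusted p = 0.00452), and it is the most abundant of the list, whose summed level was 2258 and 2234 TPM in MTF2-AID and 3186 and 3586 TPM in SUZ12-AID. For contractile genes, 1 of 18 tested members was called higher and 1 lower (median log2 difference -0.04, and 0.0056 against SUZ12-AID replicate 2 alone), with the tropomyosin gene Tpm1 at 478 and 490.5 TPM in MTF2-AID and 394 and 402 TPM in SUZ12-AID and the smooth muscle gene Cnn1 at 9.59 and 8.33 TPM in MTF2-AID and 15.9 and 14.6 TPM in SUZ12-AID. For lateral mesoderm, 1 of 16 tested members was called higher and 2 lower (median log2 difference 0.15, and -0.03 against SUZ12-AID replicate 2 alone). Beside Hand1, Pmp22 was lower (89.6 and 87.8 TPM in MTF2-AID and 132 and 149.7 TPM in SUZ12-AID; log2 difference -0.66, SE 0.08, adjusted p = 0.00275) and the imprinted gene Dlk1 higher (206 and 183 TPM in MTF2-AID and 133 and 126 TPM in SUZ12-AID). For paraxial mesoderm, 3 of 10 tested members were called higher and 0 lower (median log2 difference 0.28), beside 2.11% and 0.992% of all genes. These were Lfng, which lies in stretch 4, and the forkhead genes Foxc1 (27.8 and 27.4 TPM in MTF2-AID and 11.9 and 14.4 TPM in SUZ12-AID) and Foxc2 (3.88 and 3.08 TPM in MTF2-AID and 0.743 and 0.966 TPM in SUZ12-AID). Of the 10 differences 6 were above 0. Msgn1, Meox1, Tbx6 and Dll3 were below 0 and not called (log2 differences -1.08, -0.87, -0.23 and -0.01). The limma fit called 0 of 18 primitive streak genes and 0 of 9 neural crest genes (unadjusted p under 0.05 in 3 and 4, beside 17% of all genes). Snai1, a driver of epithelial-mesenchymal transition, was at 65.1 and 64.2 TPM in MTF2-AID and 63.6 and 65.7 TPM in SUZ12-AID, and the neural crest factors Msx1 and Snai2 at 205 and 205 TPM in MTF2-AID and 228 and 228 TPM in SUZ12-AID, and 44.4 and 45.2 TPM in MTF2-AID and 57.7 and 73.5 TPM in SUZ12-AID.

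Epithelial genes were lower in MTF2-AID where they were called. The keratin pair of simple epithelia and trophoblast, Krt8 and Krt18, measured 650.5 and 664 TPM in MTF2-AID and 1054 and 1036 TPM in SUZ12-AID (log2 difference -0.67, SE 0.05, adjusted p = 0.000362), and 627 and 631 TPM in MTF2-AID and 1086 and 999.7 TPM in SUZ12-AID (log2 difference -0.73, SE 0.08, adjusted p = 0.00214). They were the 2 called of 14 epithelial genes (median -0.24), and the summed level of 19 such genes was 1662 and 1625 TPM in MTF2-AID and 2619.9 and 2473 TPM in SUZ12-AID. For trophoblast genes, 1 of 10 tested members was called higher and 3 lower (median log2 difference 0.09, and 0.28 against SUZ12-AID replicate 2 alone), the called ones being Hand1, Krt8, Krt18 and Cdx2. For matrix genes, 3 of 27 tested members were called higher and 1 lower (median log2 difference 0.32), beside 2.11% and 0.992% of all genes. The basement membrane genes Lama1 (26.9 and 29.0 TPM in MTF2-AID and 13.2 and 17.2 TPM in SUZ12-AID), Nid2 (97.6 and 96.6 TPM in MTF2-AID and 49.4 and 64.2 TPM in SUZ12-AID) and Col18a1 (202 and 198 TPM in MTF2-AID and 144 and 157 TPM in SUZ12-AID) were higher and the fibrillar collagen gene Col1a1 lower (24.7 and 27.4 TPM in MTF2-AID and 39.5 and 46.5 TPM in SUZ12-AID; log2 difference -0.70, SE 0.12, adjusted p = 0.0137). The list median between the SUZ12-AID libraries was -0.37 (replicate 1 minus 2), and the line median was 0.04 against SUZ12-AID replicate 2 alone. Mmp2, a gelatin-cleaving protease gene of mesenchyme, lay at 123 and 126 TPM in MTF2-AID and 194 and 206 TPM in SUZ12-AID (log2 difference -0.68, SE 0.09, adjusted p = 0.00406). Of 8 endoderm genes the apolipoprotein gene Apoe was called higher (699 and 677 TPM in MTF2-AID and 532 and 446 TPM in SUZ12-AID).

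Imprinted genes, which are expressed from one parental copy, had 3 members called higher and 0 lower of 31, beside 2.11% and 0.992% of all genes. These were Dlk1, Igf2r, a receptor gene that clears IGF2 (229 and 241 TPM in MTF2-AID and 106 and 159.5 TPM in SUZ12-AID), and Impact, a translation regulator gene (53.9 and 53.9 TPM in MTF2-AID and 30.9 and 37.4 TPM in SUZ12-AID). The list median of 0.24 became 0.03 against SUZ12-AID replicate 2 alone. Replication, apoptosis and stress lists held up to 3 calls each. The replication helicase gene Mcm7 was higher (614 and 626 TPM in MTF2-AID and 469 and 446 TPM in SUZ12-AID; log2 difference 0.44, SE 0.05, adjusted p = 0.00275; within stretch 4) and Birc5, a mitotic survivin gene, lower (107 and 107 TPM in MTF2-AID and 142 and 141 TPM in SUZ12-AID). Of 19 p53 and apoptosis genes Phlda3 was called lower (195 and 189 TPM in MTF2-AID and 247 and 239 TPM in SUZ12-AID). Of heat shock and immediate early genes, Hsph1 was higher (120.5 and 132 TPM in MTF2-AID and 90.2 and 93.8 TPM in SUZ12-AID; stretch 4) and Dnajb1 (49.5 and 48.6 TPM in MTF2-AID and 68.3 and 69.5 TPM in SUZ12-AID; stretch 9) and Ier2 (84.1 and 88.7 TPM in MTF2-AID and 124 and 109 TPM in SUZ12-AID; stretch 10) lower, so all 3 lie in stretches and follow their sides.

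Among metabolic genes, the glycolytic enolase gene Eno1 was higher (1438 and 1479.7 TPM in MTF2-AID and 1243 and 1193 TPM in SUZ12-AID) and the glucose transporter gene Slc2a1 lower (861 and 901 TPM in MTF2-AID and 1045 and 1230.1 TPM in SUZ12-AID). Fdps of cholesterol synthesis (193 and 186 TPM in MTF2-AID and 235 and 223 TPM in SUZ12-AID), the oxidative stress gene Srxn1 (14.0 and 13.0 TPM in MTF2-AID and 24.0 and 23.9 TPM in SUZ12-AID; log2 difference -0.79, SE 0.14, adjusted p = 0.0145), the immunoproteasome gene Psmb8 (17.7 and 17.8 TPM in MTF2-AID and 26.6 and 27.7 TPM in SUZ12-AID), the interferon-induced gene Ifitm3 (132 and 136 TPM in MTF2-AID and 179 and 161 TPM in SUZ12-AID) and the ribosomal protein gene Rpl32 (3906 and 3848 TPM in MTF2-AID and 5295 and 4388 TPM in SUZ12-AID; shared reads with processed copies are possible) were each called lower in MTF2-AID. Housekeeping genes had 3 of 18 called higher and 0 lower, beside 2.11% and 0.992% of all genes. Their median log2 difference was -0.0043, and 8 of the 18 differences were above 0. The called genes were Actb, Gusb (42.3 and 38.4 TPM in MTF2-AID and 27.2 and 29.3 TPM in SUZ12-AID) and the translation factor gene Eef2 (4582 and 4564 TPM in MTF2-AID and 3866 and 4056 TPM in SUZ12-AID). Actb and Gusb, both often used as reference genes, lie in stretch 4. The limma fit called 0 of 15 cell-cycle inhibitors and cyclins (unadjusted p under 0.05 in 2, beside 17% of all genes), with the cyclin genes Ccnd1 at 265 and 259.8 TPM in MTF2-AID and 205 and 229 TPM in SUZ12-AID and Ccnd3 at 321 and 307 TPM in MTF2-AID and 344 and 346 TPM in SUZ12-AID. It called 0 of 23 amino acid and unfolded protein stress genes (7 at an unadjusted p under 0.05, beside the same 17%), with the chaperone gene Hspa5 at 512 and 519 TPM in MTF2-AID and 456 and 495 TPM in SUZ12-AID and the stress factor gene Atf4 at 399 and 365 TPM in MTF2-AID and 389.5 and 368 TPM in SUZ12-AID. A p above the threshold does not show that these genes were equal.

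**Figure D5:**
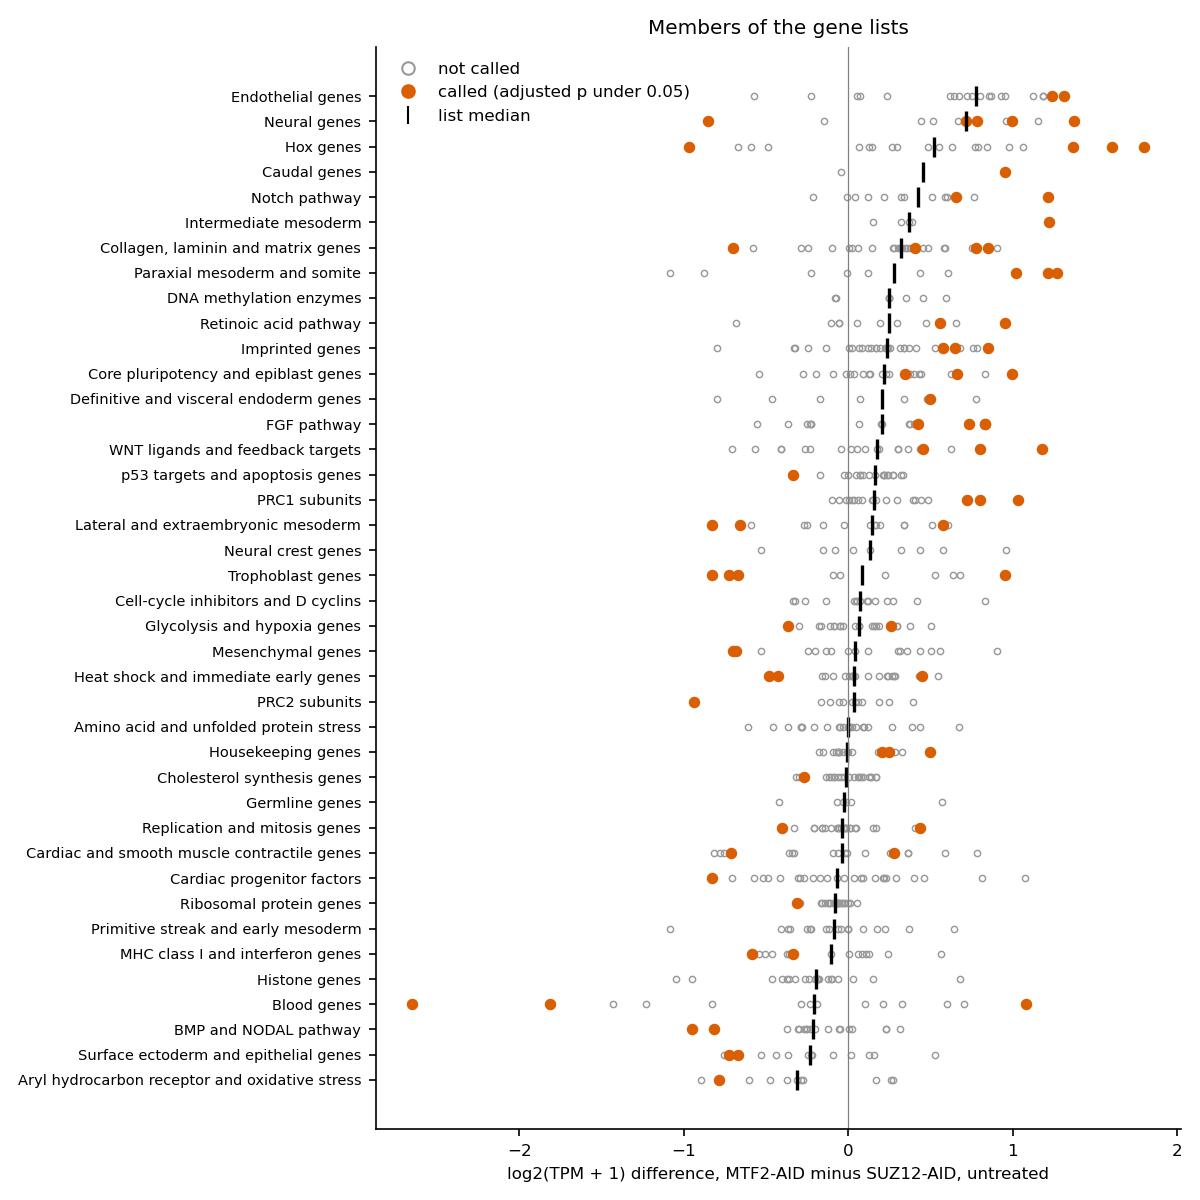
Log2(TPM + 1) difference between the untreated lines for every tested member of 40 gene lists, ordered by list median (bar). Filled points are called genes; the Endothelial and Neural medians of 0.78 and 0.72 are the highest while most of their members are not called.

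Promoter composition was compared over sets of called genes. RefSeq promoters were found for 9881 of 13404 tested genes. In the 250 bases before the start, tested genes held a median of 16 CpG, called genes outside stretches 17.5 when higher in MTF2-AID and 13 when lower, and called genes in stretches 18. The letters TATAAA, the core of the TATA box, occurred on either strand (as TATAAA or TTTATA) in 5.83% of all tested promoters, in 5 of 106 promoters of the genes higher, in 5 of 53 of the genes lower, and in 12 of 152 of the called stretch genes. It is in none of the 3 promoters printed above. A match of letters is no sign of a used site.

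Line differences were read beside those of the auxin libraries, which share no sample with the untreated ones. There 4977 genes (37.1%) were called between the lines, 2465 higher (18.4%) and 2512 lower (18.7%) in MTF2-AID. At least 2-fold apart were 695 (5.19%), 98 higher (0.731%) and 597 lower (4.45%). Of the 416 genes called untreated, 367 (88.2%) had the same sign with auxin, against 64.6% of all genes tested. In both contrasts and in the same direction 318 were called, 28 were called in opposite directions and 70 were not called with auxin. The share was 191 of 192 in stretches and 176 of 224 (78.6%) elsewhere. Among the 59 genes at least 2-fold apart 44 had the same sign. For Nkx1-2 the values with auxin were 58.4 and 58.5 TPM in MTF2-AID and 15.02 and 11.6 TPM in SUZ12-AID (log2 difference 2.07). The order of the lines was also the same for Hoxd3 (1.45), Hoxb9 (1.12), Plac8 (-1.96) and Cops4 (-0.82), given as log2 differences. Cd34 was in the opposite order, at 6.93 and 5.59 TPM in MTF2-AID and 20.3 and 21.4 TPM in SUZ12-AID, and so was Six2, at 20.9 and 19.9 TPM in MTF2-AID and 30.7 and 29.2 TPM in SUZ12-AID. The test of the difference between both contrasts was passed by 87 of the 416 genes, where 6.74% of all genes passed it.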

How the data were processed

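The authors' deposited table holds 1 TPM value per gene and library. Reads were aligned with STAR 2.6.1d to mm10, per the submitters' processing notes, and libraries were polyA-selected and stranded, per the labels' protocols. Which program and annotation made the TPM is not given in the sources used here. Read totals were recovered from the steps between values, where 100% of values above 0 came out whole within 0.001 reads, and they imply 10138285 to 17171770 reads per library. Counting error was not modelled further.

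Genes reaching 1 TPM in 2 or more of the 4 untreated libraries (14187) were fitted with limma 3.58.1 (R 4.3.3) on log2(TPM + 1), so fold changes of low genes are understated. The fit took 12 libraries in 6 groups, 1 variance weight per group (0.320 for untreated SUZ12-AID, 1.17 for untreated MTF2-AID), a mean-variance trend and Benjamini-Hochberg adjustment. It had 6 residual and 4.6 prior degrees of freedom. Counts cover the 13404 autosomal genes, of which 12827 took their position from GENCODE by symbol and 577 from RefSeq. Another 508 genes on sex chromosomes and 275 without a position were left out of them. A gene is called at an adjusted p under 0.05. A permutation of 2 against 2 libraries cannot give a p under 0.333.

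Genes were named by rule: the tagged genes, the 15 largest called differences in each direction whose higher line averaged 5 TPM or more, up to 4 called members per gene list or the 2 most abundant where none was called, 8 genes averaging 20 TPM or more with the largest difference between the untreated SUZ12-AID libraries, and up to 6 abundant called genes per stretch. Placeholder symbols, pseudogenes and short RNAs are counted and not named, and 1 gene that the rule selects is not reported here. The members and the 40 lists were chosen with earlier results of these data known. Alternatives covered the pseudocount, the filter, scaling, weights, a replicate block and leaving out each library. Fits with the 4 untreated libraries and group weights, with the transcript-length trend removed, and with quantile normalization and no weights were added after seeing the data, as were the stretch rule and its threshold of 0.3.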

Additional observations from a re-analysis of the deposited data

Results flagged for a closer look

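For 37 of the 86 called genes named from the lists or by size, the line difference without auxin differed from that with auxin by the test of that difference (limma, adjusted over all genes). Values are the untreated log2 difference (MTF2-AID minus SUZ12-AID) minus the one with auxin. In 17 genes the estimated difference had the opposite sign with auxin. In 8 of these the lines were also called with auxin, in the opposite order. Higher in MTF2-AID untreated and lower with auxin were Cd34 2.90, Six2 1.75, Utf1 1.49, Lmo2 2.02 and Nrarp 0.98, and lower untreated and higher with auxin Hand1 -1.25, Irx3 -1.38 and Slc2a1 -0.57. In the other 9 the lines were not called with auxin, so no change of order is shown: Dkk1 1.33, Bmi1 1.29, Sox2 1.28, Foxc2 1.48, Rspo3 1.00, Spry4 1.11 and Nid2 0.84, which were higher in MTF2-AID untreated, and Col1a1 -0.81 and Fdps -0.28, which were lower. The auxin libraries of the lines overlapped for Dkk1 (31.1 and 35.3 TPM in MTF2-AID and 39.6 and 34.3 TPM in SUZ12-AID), Nid2 and Fdps.

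In 20 genes the estimated differences had the same sign and differed in size. Positive values were Tubb3 0.74, Anxa3 1.36, Cryab 1.53, Foxc1 0.94, Apoe 0.45, Krt18 0.42, Zic2 0.76, Dusp6 0.49, Cyp26a1 0.83, Phlda3 0.82, Srxn1 1.35 and Ifitm3 0.58. Negative values were Ackr3 -0.87, Cpne4 -0.92, Hoxb2 -0.82, Lin28a -0.40, Pmp22 -0.51, Cdx2 -1.35, Mcm7 -0.31 and Eno1 -0.50. For Cd34, SUZ12-AID lay at 3.04 and 4.55 TPM untreated and 20.3 and 21.4 TPM with auxin, where MTF2-AID had 11.1 and 10.4 TPM and 6.93 and 5.59 TPM. For Lmo2, SUZ12-AID lay at 8.12 and 8.70 TPM untreated and 25.7 and 30.5 TPM with auxin. Hand1 lay there at 2291 and 2552 TPM and 1077 and 989.8 TPM. No test for an outlying library was run on single values, since each group has 2 libraries.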

How the results depend on the processing

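The number of genes called moved with nearly every choice. In all 129 called genes that the naming rule selects, the sign of the difference stayed the same under every setting run. Many settings could not have changed it. The groups did not overlap in any of the 416 called genes, so leaving out 1 untreated library cannot turn a sign. Weights per group and the replicate block leave the line difference as it is. Of 24 genes named without a call, 9 changed sign over the settings, among them Mtf2 (-0.34 to 0.05), Jarid2 (-0.01 to 0.38), Atf4 (-0.07 to 0.08) and Snai1 (-0.08 to 0.02). Among genes at least 2-fold apart, more were lower than higher with median-of-ratios scaling (28 higher, 34 lower) and with quantile normalization (44 and 59, or 75 and 94 without weights), and without SUZ12-AID replicate 1 (2 and 5), against 41 and 18. Leaving out 1 untreated library gave 24 to 250 calls (15 to 210 higher, 9 to 93 lower), 2 to 59 genes at least 2-fold higher and 5 to 33 at least 2-fold lower. The library left beside it kept the weight of its group and was assumed to vary like the other groups. The same fits gave 281 to 783 genes for the difference between the untreated and auxin contrasts (904 in all libraries), and leaving out 1 auxin library gave 371 to 788. Leaving out 1 untreated library gave 6 to 30 list members higher and 3 to 18 lower. Calls in the auxin contrast were 3020 to 4037, with 1197 to 1904 higher and 1484 to 2133 lower. Chromosome medians ran 0.15 to 0.19 on chromosome 5 and -0.17 to -0.15 on chromosome 6, and the median CpG of the promoters of lower genes ran 7 to 12.

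For untreated genes called, higher, lower, 2-fold higher and 2-fold lower, no weights gave 1371, 875, 496, 81 and 44, and quantile normalization without weights 1729, 871, 858, 75 and 94. The 4 untreated libraries alone gave 112, 56, 56 and 26 without weights (called, higher, lower, 2-fold higher) and 139, 77 and 62 with a weight per group. Quantile normalization gave 650 calls, 299 of them lower and 59 at least 2-fold lower, median-of-ratios scaling 201 lower and 34 at least 2-fold lower, and the removed length trend 1123, with 577 higher, 546 lower and 42 at least 2-fold lower. A pseudocount of 5 left 7 and 7 genes at least 2-fold apart, and no filter on low values 27 at least 2-fold higher.

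In the auxin contrast a pseudocount of 5 left 33 and 190 genes at least 2-fold higher and lower, a minimum of 5 TPM 255 at least 2-fold lower, and quantile normalization 154 at least 2-fold higher, or 156 without weights. The difference between the contrasts was called in 590 genes with the 5 TPM minimum, 1546 without weights, 2156 with the length trend removed and 1551 with quantile normalization and no weights. List members called higher and lower numbered 98 and 65 without weights, 13 and 11 in the 4 libraries, 16 and 10 there with weights, 74 and 64 with the length trend removed, 97 and 80 with quantile normalization and no weights, and 39 lower with quantile normalization. The chromosome 5 median was 0.21 with a pseudocount of 0.1, 0.12 with 5, 0.093 without a filter and 0.17 with the length trend removed, and the chromosome 6 median -0.17, -0.12 and -0.092 under the first 3 of these. Causes were not tested.

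The fit with the replicate number as a block called 509 genes, 415 of the 416 among them, and lost no named call. The labels do not say that a number marks a shared batch, and same-numbered libraries of both lines deviated with r = 0.11 over genes untreated and -0.03 with auxin, over 2 pairs each. The 2 untreated libraries of a line were not copies of 1 library, with a chi-square per gene of 1.89 in MTF2-AID and 21.2 in SUZ12-AID. Depth limits genes near 1 TPM, where a value rests on few reads.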
